A study of Mus musculus with 4 samples.

Results

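The cell cycle and mitosis genes described here are 40 mouse genes that dividing cells express: the proliferation marker Mki67 with Top2a and Foxm1, the cyclins with the kinase Cdk1, the DNA replication and deoxynucleotide genes, the mitotic kinases and checkpoint genes, and the genes of the centromere, spindle and cleavage furrow. They were chosen by name, and 39 of the 40 were measured, among 19938 genes that had a probe naming them alone. The B-type cyclin Ccnb1 had no such probe and is not analysed here. Visceral mesothelium from the omentum (2 arrays) was set against parietal mesothelium teased off the muscle of the body wall (2 arrays), and all RNA came from untreated adult Wt1-cre;Rosa26ReYFP mice on a c57bl/6 background, so both tissues carry the Cre transgene and the eYFP reporter. In these mice the Wt1 promoter drives Cre, which switches on eYFP in cells that express or have expressed Wt1, a mesothelial gene, but the RNA is of the whole native layer and not of sorted cells. The arrays of each tissue are labelled as biological replicates 1 and 2, with no animal named for either. So p-values here set the difference between tissues against the spread between arrays of a tissue, which need not be that between animals. Whether equal numbers mark tissues of the same mice is not stated. Xist, the RNA of the inactive X chromosome, was bright on the arrays numbered 1 and dim on those numbered 2 in both tissues. Its signals were 11.46 and 5.70 in visceral and 10.91 and 5.75 in parietal mesothelium. The Y-linked genes Uty, Kdm5d and Eif2s3y lay between 8.39 and 9.65 on all arrays, including those numbered 1. Whether the arrays numbered 1 hold RNA of both sexes was not tested.

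A cell that enters division first makes G1 cyclins, which lead to release of E2F factors from the retinoblastoma family of pocket proteins and to transcription of replication genes, and later, in G2, transcribes a second set of genes for mitosis. The late set is repressed in resting cells by the DREAM complex, which is bound in part through a promoter element named the cell cycle genes homology region (CHR), and it is induced by B-Myb and FOXM1, often together with the CCAAT-binding factor NF-Y. Adult mesothelium is a single flattened layer that is known for a low rate of division at rest, which rises after injury. The visceral sheet of the omentum also holds clusters of immune cells. In whole tissue RNA, fewer dividing cells and less RNA per dividing cell cannot be told apart.

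Values are log2 signals normalised by the RMA method, so a difference of 1 is a doubling of signal, and the signal of 1 probe was not set against that of another. The array medians over all probes lay between 7.38 and 7.41, and Pearson's r over all probes was 0.992 within visceral and 0.993 within parietal mesothelium, and 0.965 to 0.969 for arrays of different tissues. The defining mesothelial markers were bright on all arrays, with medians over 10 genes of 12.18 and 11.98 in visceral and 12.77 and 12.54 in parietal mesothelium, and of these 10 limma called 1, Wt1, as higher on the visceral arrays and 5 as higher on the parietal arrays. The parietal arrays also held skeletal muscle RNA, with all 10 muscle markers called higher there, and the visceral arrays held macrophage and dendritic cell RNA, with all 11 measured markers called higher, as were 7 of 8 mast cell and 5 of 8 B and plasma cell markers.

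Most cell cycle and mitosis genes gave their lowest signal on a single array, that of parietal replicate 2, while parietal replicate 1 resembled the visceral arrays. The median signal of the 39 genes was 8.32 and 8.04 in visceral replicates 1 and 2, against 8.17 and 7.23 in parietal replicates 1 and 2. The same median over all 19938 genes was 7.72 and 7.73 in visceral and 7.71 and 7.70 in parietal mesothelium, which RMA makes nearly equal by construction. Parietal replicate 2 was the lowest of the 4 arrays for 38 of the 39 genes, against 25.1% of all genes, and the exception was Mcm2, which was lowest in visceral replicate 2. The highest array was visceral replicate 1 for 27 genes, parietal replicate 1 for 11 and visceral replicate 2 for 1, against 25.7%, 22.2% and 27.0% of all genes.

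**Figure D1:**
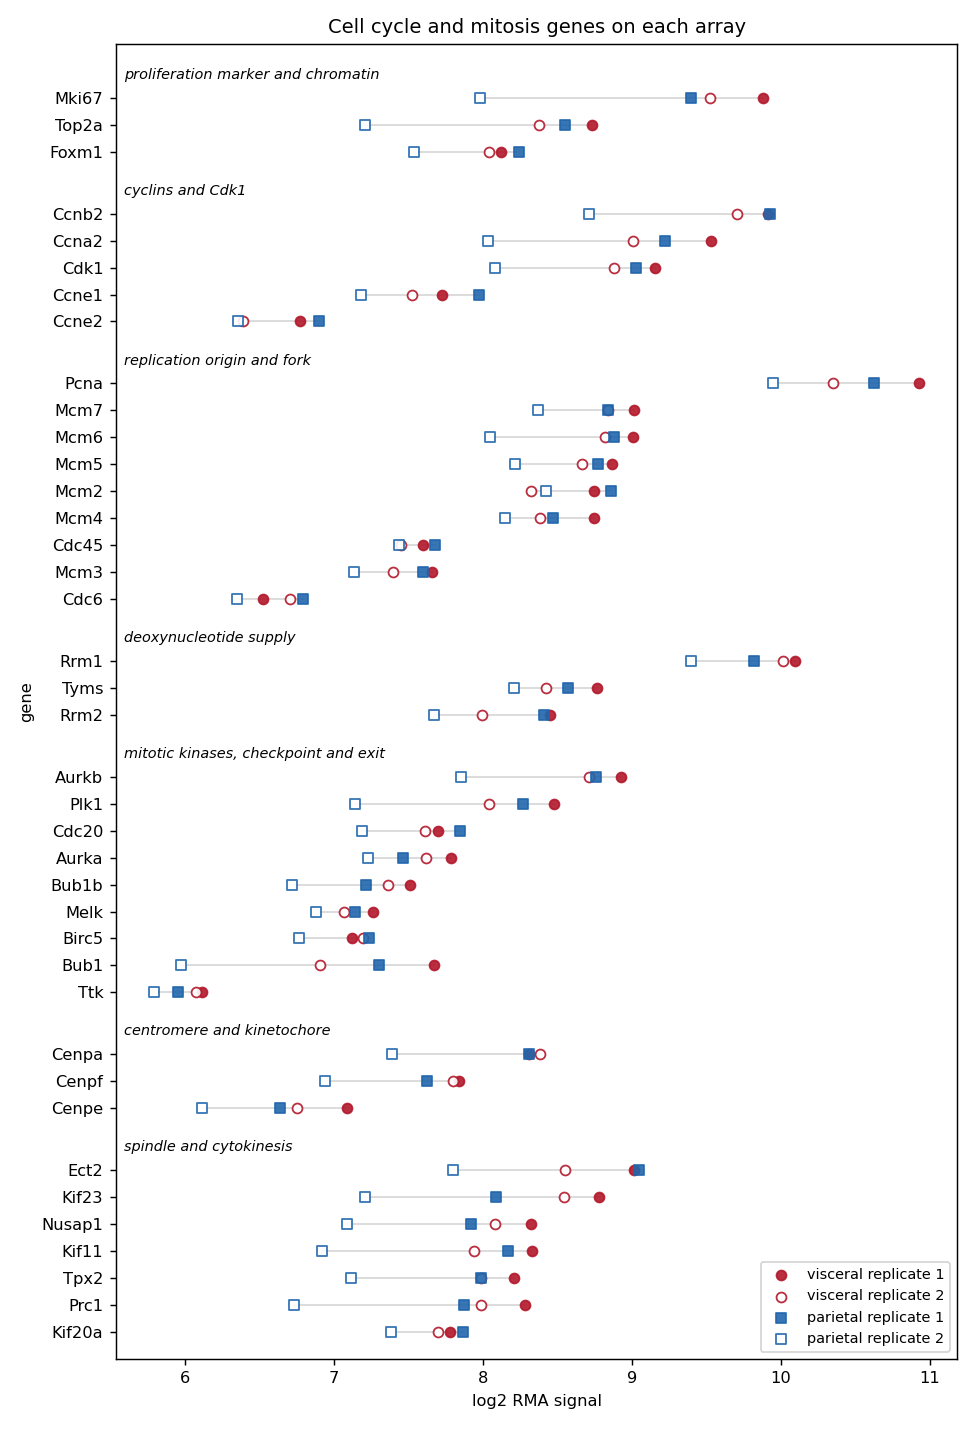
Log2 RMA signal (horizontal axis) of each of the 39 measured genes (vertical axis, grouped by role) on each of the 4 arrays, with filled points for replicate 1, open points for replicate 2, circles for visceral arrays and squares for parietal arrays. The open square, parietal replicate 2, stands farthest to the left for 38 of the 39 genes, and the filled square lies among or next to the circles.

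To ask whether the tissues differed in these genes, visceral was compared with parietal mesothelium with limma over all genes, and a difference was called where p, adjusted by Benjamini-Hochberg, was under 0.05 and the fold reached 1.5. Of the 39 genes, 0 were called in either direction, whereas 9.60% of all genes were called, 5.22% as higher in visceral and 4.39% as higher in parietal mesothelium. At an unadjusted limma p under 0.05 without a fold threshold there were 6 (Kif23, Aurka, Rrm1, Bub1b, Cenpe and Nusap1), against 27.1% of all genes, and the methods' t-test with the same fold called 0 before adjustment, against 7.93% of all genes, and 0 after it. With the replicate number as a block, limma called 3 (Kif23, Nusap1 and Bub1, all higher in visceral mesothelium), against 10.1% of all genes, and whether the numbers pair the tissues by animal is not known. The mean was higher in visceral mesothelium for 36 of the 39 genes, against 50.4% of all genes, and the median log2 difference was 0.36 (lowest -0.11, highest 1.02), against 0.00 for all genes. The visceral arrays both lay above the parietal arrays for 13 genes (Mki67, Mcm7, Rrm1, Aurka, Bub1b, Ttk, Cenpa, Cenpe, Cenpf, Kif23, Prc1, Tpx2 and Nusap1), a pattern that 28.9% of all genes showed, and the reverse held for 0, against 27.4% of all genes.

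The size of these differences depended on which parietal array was used. Without parietal replicate 2 the median log2 difference of the 39 genes was 0.01 and limma called 0 of them, against 9.71% of all genes. The difference stayed above 0 for 21 of the 39 genes without that array, with Kif23 at 0.58. The same share over all genes was not counted. The 13 genes whose arrays did not overlap are among the 21 by definition, since their visceral arrays lay above each parietal array. Without parietal replicate 1 the median was 0.69 and 20 of the 39 were called, all as higher in visceral mesothelium, against 10.5% of all genes in either direction. In those fits the lone parietal array is assumed to vary like the visceral pair. Leaving out visceral replicate 1 or 2 gave medians of 0.27 and 0.48, with 0 of the 39 called in each, against 9.17% and 8.51% of all genes. Between arrays of the same replicate number, the median difference was 0.16 for the arrays numbered 1 and 0.62 for the arrays numbered 2. Higher in visceral mesothelium were 28 of 39 genes for number 1, against 49.9% of all genes, and 38 of 39 for number 2, against 51.3%. A difference of at least 0.5 was found for 1 gene between the arrays numbered 1, Kif23, and for 21 genes between the arrays numbered 2, against 6.89% and 7.68% of all genes. With 1 array a tissue in each such pair these values have no test.

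**Figure D2:**
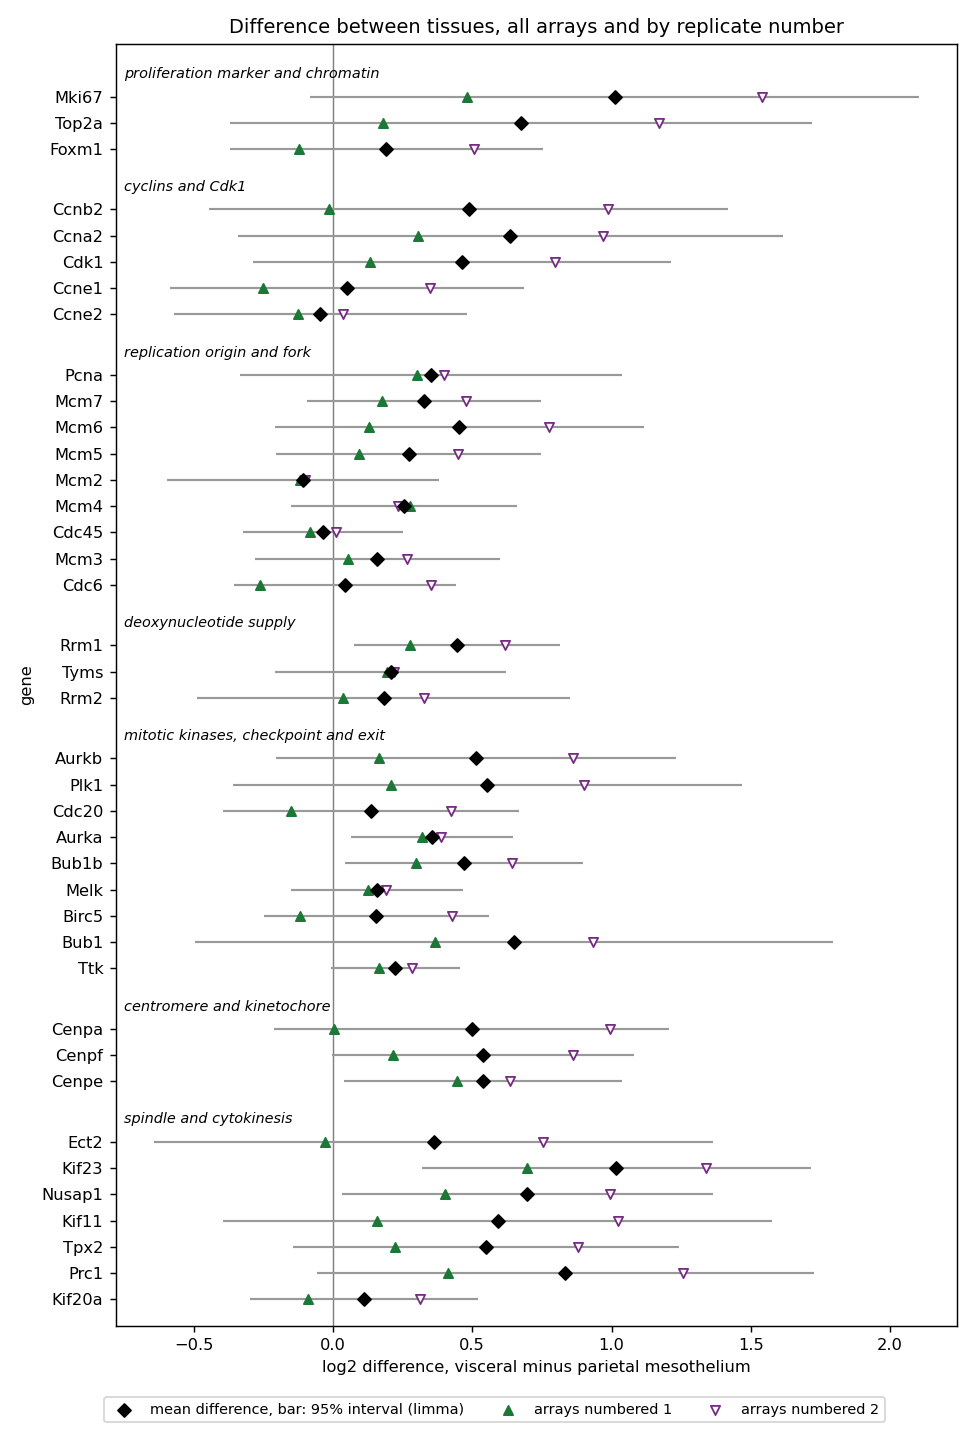
Log2 difference, visceral minus parietal mesothelium (horizontal axis), for each of the 39 genes, with the mean difference over all arrays and its 95% interval from limma (diamond and bar), the difference between the arrays numbered 1 (filled triangle) and that between the arrays numbered 2 (open triangle). The interval lies wholly above 0 for 6 genes, and the open triangles stand to the right of the filled ones for 38 of the 39 genes.

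The gap between the parietal replicates was one-sided. Parietal replicate 1 exceeded parietal replicate 2 for all 39 genes, against 49.8% of all genes, with a median log2 gap of 0.69 (lowest 0.16, highest 1.41), while over all genes the middle 90% of gaps ran between -0.27 and 0.30. The gap reached 0.5 for 25 of the 39 genes but for 1.39% of all genes, and it reached 1 for 9 but for 0.221% of all genes. Of the 100 genes with the largest such gap on the whole array, 18 were among these 39, and the 1000 largest held 35 of them. The visceral replicates differed in the same direction by less, with replicate 1 above replicate 2 for 36 of the 39 genes, against 48.9% of all genes. Their median gap was 0.22 (lowest -0.18, highest 0.76), and the gap was at least 0.5 for 3, against 1.54% of all genes. Across the 39 genes the parietal and visceral gaps had a Pearson's r of 0.47 and a Spearman's rho of 0.46, and over all genes 0.356 and 0.298. These are descriptions across genes, which share the same 4 arrays and are not independent replicates.

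**Figure D3:**
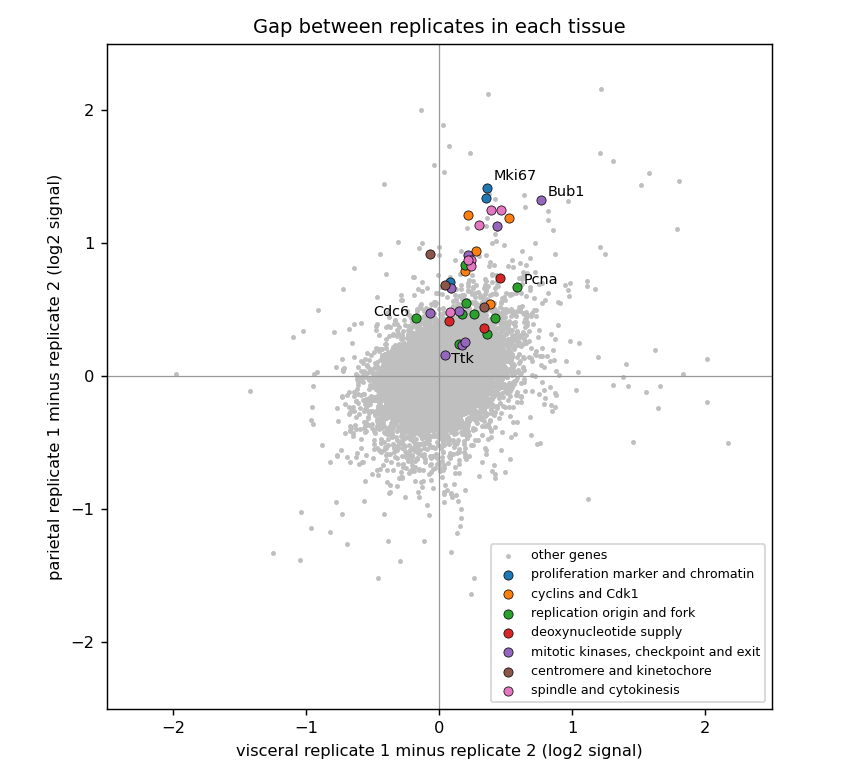
Log2 signal of replicate 1 minus replicate 2 in parietal mesothelium (vertical axis) against the same gap in visceral mesothelium (horizontal axis), for the 39 genes (coloured by role) and all other genes (grey). All 39 genes lie above 0 on the vertical axis, with a median of 0.69, and 36 lie to the right of 0 on the horizontal axis, with a median of 0.22. Car2, Igkv4-55 and Xist lie beyond the axes.

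Among the marker and chromatin genes, Mki67 had the widest parietal gap of the 39. It encodes the Ki-67 antigen, which coats mitotic chromosomes and is lost from resting cells, and its signal was 9.88 and 9.52 in visceral mesothelium, against 9.40 and 7.98 in parietal mesothelium. Parietal replicate 1 was close below the lower visceral array and parietal replicate 2 stood apart, so the tissues did not overlap. The means were 9.70 ± 0.25 in visceral and 8.69 ± 1.00 in parietal mesothelium (SD, n = 2 each), a log2 difference of 1.01 (standard error, SE, 0.44, limma adjusted p = 0.214). Between the parietal replicates the signal of Mki67 differed 2.66-fold. Top2a, the topoisomerase that untangles sister chromosomes, gave 8.73 and 8.38 in visceral mesothelium, against 8.55 and 7.21 in parietal mesothelium. Here parietal replicate 1 lay between the visceral arrays (log2 difference 0.68, SE 0.42, limma adjusted p = 0.375). A second, dim probe of Top2a lay between 4.68 and 4.86 on all arrays and had a parietal gap of 0.10. Foxm1, the transcription factor that activates the late mitotic genes, had 8.12 and 8.04 in visceral mesothelium, against 8.24 and 7.54 in parietal mesothelium. Its highest and its lowest array were both parietal, and the log2 difference was 0.19 (SE 0.23, limma adjusted p = 0.66).

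The cyclins of S phase and mitosis and their kinase were also lowest in parietal replicate 2 alone. Cyclin A2 (Ccna2), which acts in S phase and G2, had 9.53 and 9.01 in visceral mesothelium, against 9.23 and 8.04 in parietal mesothelium. Ccnb2, a B-type cyclin of mitosis, had 9.92 and 9.70 in visceral mesothelium, against 9.93 and 8.71 in parietal mesothelium. Cdk1, the kinase that these cyclins activate, had 9.16 and 8.88 in visceral mesothelium, against 9.03 and 8.08 in parietal mesothelium. In each, parietal replicate 1 reached or passed the lower visceral array, so the tissues overlapped, and parietal replicate 2 was 0.80 to 0.99 below the next lowest array, visceral replicate 2. The log2 differences of the 3 genes lay between 0.46 and 0.64, with adjusted p of 0.371 to 0.48 in limma. The E-type cyclins Ccne1 and Ccne2, which act at entry into S phase, had log2 differences of 0.05 and -0.05 and parietal gaps of 0.79 and 0.54, and for both the highest array was parietal replicate 1.

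The replication genes had a median parietal gap of 0.47 over 9 genes (lowest 0.24, highest 0.84). The 9 mitotic kinase and checkpoint genes, with 0.49, and the 3 deoxynucleotide genes, with 0.42, had similar medians. Wider medians were found for the 3 marker and chromatin genes (1.35) and the 5 cyclin and Cdk1 genes (0.94). The 7 spindle and cytokinesis genes had 0.88 and the 3 centromere genes 0.69. These medians are given as a description, and no test was made of roles against each other. Pcna, the sliding clamp of DNA polymerase, had 10.93 and 10.35 in visceral mesothelium, against 10.63 and 9.95 in parietal mesothelium. Replicate 1 exceeded replicate 2 by similar amounts in both tissues, 0.58 in visceral and 0.68 in parietal mesothelium, and a second Pcna probe had a parietal gap of 0.69. Mcm6, a subunit of the MCM helicase that opens the origins, had 9.01 and 8.82 in visceral mesothelium, against 8.88 and 8.05 in parietal mesothelium. Mcm7, another subunit, had 9.02 and 8.84 in visceral mesothelium, against 8.84 and 8.37 in parietal mesothelium. Mcm4, a further subunit, had 8.75 and 8.39 in visceral mesothelium, against 8.47 and 8.15 in parietal mesothelium. Mcm6 had the widest parietal gap of the replication genes, whereas the gap of Mcm4, 0.32, was no wider than its visceral gap, 0.36, the only case among the 39 genes. Of the rest, Mcm3 and Mcm5 had log2 differences of 0.16 and 0.27, and Mcm2, the helicase loader Cdc6 and the helicase cofactor Cdc45 lay between -0.11 and 0.04.

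Of the 3 genes of deoxynucleotide supply, Rrm1, the large subunit of ribonucleotide reductase, had 10.09 and 10.02 in visceral mesothelium, against 9.82 and 9.40 in parietal mesothelium. The arrays did not overlap, and the log2 difference was 0.45 (SE 0.15, limma adjusted p = 0.12). Rrm2, the small subunit, which is made in S phase, had 8.45 and 8.0 in visceral mesothelium, against 8.41 and 7.67 in parietal mesothelium. Tyms, which makes thymidylate, had 8.77 and 8.43 in visceral mesothelium, against 8.57 and 8.21 in parietal mesothelium. For both, parietal replicate 1 lay between the visceral arrays, and the log2 differences were 0.18 and 0.21.

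Among the mitotic kinases and checkpoint genes, Bub1 had the widest gap in each tissue. This checkpoint kinase of the kinetochore had 7.67 and 6.91 in visceral mesothelium, against 7.30 and 5.98 in parietal mesothelium, so replicate 1 exceeded replicate 2 by 0.76 in visceral and 1.33 in parietal mesothelium (log2 difference 0.65, SE 0.46, limma adjusted p = 0.441). Bub1b, which encodes the checkpoint protein BubR1, had 7.51 and 7.36 in visceral mesothelium, against 7.21 and 6.72 in parietal mesothelium. Aurka, the Aurora kinase of the centrosome, had 7.78 and 7.62 in visceral mesothelium, against 7.46 and 7.23 in parietal mesothelium. Both stayed apart between tissues, with log2 differences of 0.47 (SE 0.17, limma adjusted p = 0.15) for Bub1b and 0.35 (SE 0.12, limma adjusted p = 0.116) for Aurka. Ttk, the MPS1 kinase that starts the checkpoint, was dim, at 6.12 and 6.08 in visceral mesothelium, against 5.95 and 5.79 in parietal mesothelium. Its parietal gap of 0.16 was the narrowest of the 39 genes, and its arrays did not overlap. Aurkb, the Aurora kinase of the chromosomal passenger complex, and the Polo-like kinase Plk1 had parietal gaps of 0.91 and 1.13, and the survivin gene Birc5, the anaphase activator Cdc20 and the kinase Melk had gaps of 0.47, 0.66 and 0.26.

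All 3 centromere genes had non-overlapping arrays, though for Cenpa by 0.002, where 28.9% of all genes had both visceral arrays above the parietal ones. Cenpa, the histone H3 variant that marks the centromere, had 8.31 and 8.38 in visceral mesothelium, against 8.31 and 7.39 in parietal mesothelium. Cenpe, a kinesin that carries chromosomes along the spindle, had 7.09 and 6.75 in visceral mesothelium, against 6.64 and 6.12 in parietal mesothelium. Cenpf, a large kinetochore protein, had 7.84 and 7.80 in visceral mesothelium, against 7.62 and 6.94 in parietal mesothelium. The 3 log2 differences lay between 0.50 and 0.54, with adjusted p of 0.155 to 0.335 in limma, and the differences between arrays of the same number ran from 0.00 to 0.44 for number 1 and 0.63 to 0.99 for number 2.

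The genes of the spindle midzone and cleavage furrow included the largest difference between tissues. Kif23, a kinesin of the centralspindlin complex, had 8.78 and 8.55 in visceral mesothelium, against 8.09 and 7.21 in parietal mesothelium. Both parietal arrays were below both visceral arrays, and this was also the largest difference between the arrays numbered 1, 0.70. The log2 difference of Kif23 was 1.02 (95% interval 0.32 to 1.72, SE 0.28, limma adjusted p = 0.0728), the lowest adjusted p of the 39 genes. Prc1, which bundles the microtubules of the midzone, had 8.29 and 7.99 in visceral mesothelium, against 7.88 and 6.73 in parietal mesothelium. Nusap1, a microtubule binding protein of the spindle, had 8.32 and 8.08 in visceral mesothelium, against 7.92 and 7.09 in parietal mesothelium. In both the visceral arrays lay above the parietal ones, with log2 differences of 0.83 (SE 0.36, limma adjusted p = 0.211) for Prc1 and 0.70 (SE 0.27, limma adjusted p = 0.168) for Nusap1. Kif11, the kinesin that pushes the spindle poles apart, had 8.33 and 7.94 in visceral mesothelium, against 8.17 and 6.92 in parietal mesothelium. Ect2, the exchange factor that activates RhoA at the furrow, had 9.02 and 8.55 in visceral mesothelium, against 9.05 and 7.80 in parietal mesothelium. These 2 had parietal gaps of 1.25 each and overlapped between tissues. The spindle assembly factor Tpx2 had a log2 difference of 0.55, and the late mitotic kinesin Kif20a one of 0.11.

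The promoters are shown because genes induced in G2 and M phase share short promoter elements, and members of each timing class are set side by side. RefSeq promoter sequences (assembly GRCm38.p6, 250 bases before to 50 after the start of transcription) were at hand for 33 of the 40 genes, in 36 promoters. Printed are the 200 bases before and the first 10 after the start for 4 late cell cycle genes and for the replication gene Mcm6, all on the minus strand and 5′ to 3′. Mki67 lies at chr7:135716370-135716579, Ccnb2 at chr9:70421545-70421754, Cdk1 at chr10:69352903-69353112, Kif23 at chr9:61946790-61946999 and Mcm6 at chr1:128359696-128359905. Capitals mark matches on either strand to the CHR letters (TTTGAA and its variant TTTAAA), to CCAAT and to an E2F site (the variants TTTGGCG, with TTTCGCG, and with TTCCCGC).
Mki67: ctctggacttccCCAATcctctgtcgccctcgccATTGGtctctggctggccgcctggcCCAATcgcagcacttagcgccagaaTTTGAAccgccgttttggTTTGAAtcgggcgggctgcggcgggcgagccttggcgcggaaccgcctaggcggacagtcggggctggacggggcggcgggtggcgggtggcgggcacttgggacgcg
Ccnb2: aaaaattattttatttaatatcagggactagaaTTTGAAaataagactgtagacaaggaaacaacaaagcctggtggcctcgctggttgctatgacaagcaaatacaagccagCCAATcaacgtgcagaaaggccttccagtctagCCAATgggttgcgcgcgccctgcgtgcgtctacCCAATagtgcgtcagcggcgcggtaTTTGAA
Cdk1: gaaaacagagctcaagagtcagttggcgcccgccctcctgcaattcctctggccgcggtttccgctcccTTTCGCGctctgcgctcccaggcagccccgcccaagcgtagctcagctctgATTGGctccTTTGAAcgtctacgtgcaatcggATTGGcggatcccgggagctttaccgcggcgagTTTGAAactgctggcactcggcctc
Kif23: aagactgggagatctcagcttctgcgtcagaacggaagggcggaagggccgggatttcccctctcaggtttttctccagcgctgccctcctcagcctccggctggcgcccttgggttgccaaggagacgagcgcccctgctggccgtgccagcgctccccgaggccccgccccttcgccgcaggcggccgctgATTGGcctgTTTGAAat
Mcm6: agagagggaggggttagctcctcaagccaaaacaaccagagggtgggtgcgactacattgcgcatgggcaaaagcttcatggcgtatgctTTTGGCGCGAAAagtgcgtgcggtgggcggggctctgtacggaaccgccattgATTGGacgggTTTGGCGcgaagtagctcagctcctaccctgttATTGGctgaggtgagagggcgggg

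Counting the start of transcription as 1 with no base 0, and giving the first base of each match, Mki67 had CHR letters at -116 and -98 and CCAAT letters at -188, -166 and -141. In Ccnb2 the 3 CCAAT matches at -87, -54 and -21 stood before a CHR match at 5, and another CHR match lay at -167. Cdk1 had CHR matches at -71 and -15, CCAAT matches at -80 and -48 and an E2F match at -131. Kif23 had 1 CCAAT match at -7 and 1 CHR match at 3. Mcm6 had no CHR match in this window but E2F matches at -110, -105 and -47, of which the pair at -110 and -105 overlap on opposite strands, and CCAAT matches at -57 and -14.

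Over the whole window, CHR letters were in 25 of the 36 promoters (69.4%), against 27.6% of all 32851 promoters of the same length. CCAAT letters were in 30 (83.3%), against 37.4%, and E2F letters in 9 (25%), against 6.72%. No match of 1 motif overlapped a match of another in these 36 promoters. A CHR and a CCAAT match stood in the same promoter for 21 of the 33 genes. By role, CHR letters were found in 3 of 3 centromere genes, 4 of 5 spindle and cytokinesis genes, 6 of 8 kinase and checkpoint genes and 4 of 4 cyclin and Cdk1 genes, but in 3 of 8 replication genes, whereas E2F letters were in 5 of 8 replication genes and in 0 of the centromere and spindle genes. The 22 measured genes with CHR letters had a median parietal gap of 0.77 (lowest 0.16, highest 1.41) and the 10 without had 0.47 (lowest 0.26, highest 1.33). These ranges overlapped almost fully. For CCAAT letters the medians were 0.71 for the 26 genes with and 0.46 for the 6 without. On the forward strand alone they were 0.685 for 17 with and 0.676 for 15 without. For E2F letters they were 0.47 for 8 with and 0.77 for 24 without. No test was made of these splits. A match of letters describes the sequence and is not evidence of a bound site.

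**Figure D4:**
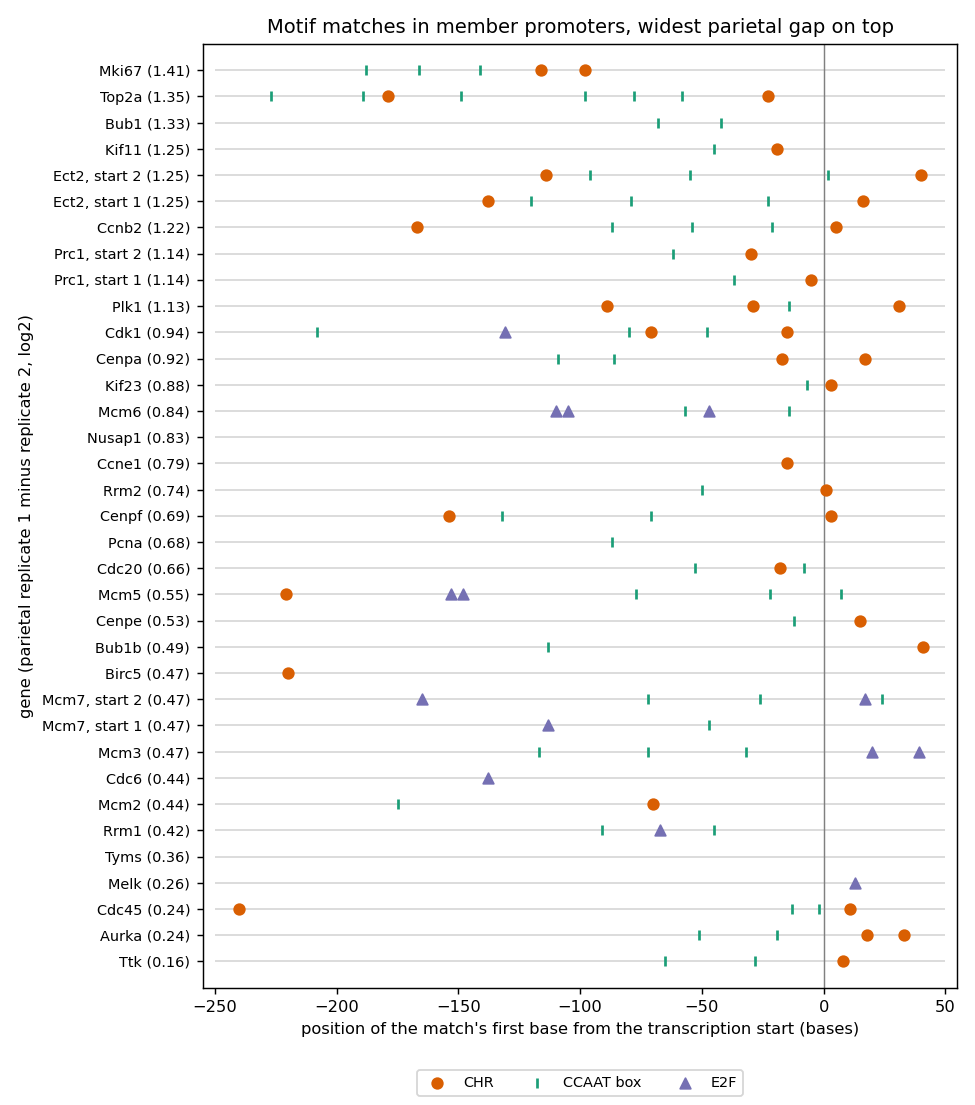
Position of each motif match from the start of transcription (horizontal axis, bases) in each promoter of the 32 measured genes with a RefSeq promoter, ordered by the log2 gap of parietal replicate 1 over replicate 2 (in brackets). Circles are CHR, vertical ticks CCAAT and triangles E2F matches. Mki67 with 1.41 stands on top and Ttk with 0.16 at the bottom, and both hold CHR and CCAAT matches.

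To place these genes in their pathway, 129 further cell cycle genes in 5 lists were examined in the same fit, and limma called 4 of them, against 9.60% of all genes. Among 14 G1 cyclins and kinases 1 was called, Ccnd3, a D-type cyclin, with 11.09 and 10.79 in visceral mesothelium, against 10.05 and 9.95 in parietal mesothelium. It was higher in visceral mesothelium by a log2 difference of 0.93 (SE 0.12, limma adjusted p = 0.00618), and its parietal arrays lay close together. Among 7 Cdk inhibitors 1 was called, Cdkn2c, which encodes p18INK4c, an inhibitor of Cdk4 and Cdk6, with 8.73 and 8.92 in visceral mesothelium, against 7.92 and 7.97 in parietal mesothelium (log2 difference 0.88, SE 0.10, limma adjusted p = 0.00345). Among 19 pocket protein, E2F and MuvB genes 1 was called, E2f1, the activator of S phase genes, which was lower in visceral mesothelium, at 8.19 and 8.05, against 8.94 and 8.58 in parietal mesothelium (log2 difference -0.64, SE 0.14, limma adjusted p = 0.0336). Of 42 other replication genes 0 were called, and of 47 other mitosis genes 1 was called, the condensin subunit Smc4, with 9.79 and 9.70 in visceral mesothelium, against 9.14 and 8.68 in parietal mesothelium (log2 difference 0.84, SE 0.16, limma adjusted p = 0.0218).

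The gap between the parietal replicates extended to the mitosis list, and its median was smaller in each of the other lists. Parietal replicate 1 was above replicate 2 for 46 of the 47 other mitosis genes, with a median gap of 0.47 and a gap of at least 0.5 for 19, and Mad2l1, the MAD2 checkpoint gene, reached 1.11 (9.14 and 8.71 in visceral mesothelium, against 8.93 and 7.83 in parietal mesothelium). For the 42 other replication genes the count was 39, with a median gap of 0.20 and at least 0.5 for 4. Of the G1 cyclins and kinases 13 of 14 were higher in parietal replicate 1, but by a median of 0.19 and by at most 0.48. The count was 3 of 7 for the Cdk inhibitors and 12 of 19 for the pocket protein, E2F and MuvB genes, with median gaps of -0.02 and 0.06, against 0.00 for all genes. In the Cdk inhibitor list the widest gap, 0.91, belonged to Cdkn3, a phosphatase of Cdk proteins that is itself made late in the cell cycle, and in the E2F list a gap of 0.91 belonged to E2f8, an atypical E2F repressor.

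Markers of other cells also moved between the arrays, and their part in the gap was not tested. The 10 skeletal muscle markers had median signals of 7.38 and 7.44 in visceral mesothelium, against 12.50 and 12.96 in parietal mesothelium, so parietal replicate 2 had more muscle signal, with 9 of the 10 higher there and a median gap of -0.42. The 8 measured adipocyte markers had 7.11 and 7.24 in visceral mesothelium, against 7.93 and 7.33 in parietal mesothelium, with a median parietal gap of 0.53. The 10 mesothelial markers had a median parietal gap of 0.12 and 7 of them were higher in parietal replicate 1. The 11 measured macrophage and dendritic cell markers had median signals of 10.47 and 10.71 in visceral mesothelium, against 8.01 and 8.29 in parietal mesothelium. Their median parietal gap was -0.11, and 4 of the 11 were higher in parietal replicate 1. The median parietal gap was -0.035 for B and plasma cell markers and -0.02 for T and NK cell markers. It was -0.13 for mast cell and 0.05 for endothelial markers.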

How the data were processed

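RNA of visceral and parietal mesothelium was measured on 4 Affymetrix mouse gene arrays, 2 per tissue. The authors normalised the arrays with RMA, and the deposited values are log2 signals per probe. The submitters' processing notes name Partek 6.6, and the sources used here do not give the annotation version. No further normalisation was made.

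Gene symbols came from an annotation of the platform and were checked through a RefSeq table (assembly GRCm38.p6), which changed 0 of them. Of 35556 probes, 21789 had 1 symbol, 1621 several and 12146 none, and only those with 1 were used. For 999 genes with several probes, 2 of the 39 among them, the probe of highest mean signal stood for the gene. Tissues were compared over 19938 genes with limma 3.58.1 in R 4.3.3 (lmFit and eBayes, all 4 arrays, no block), with Benjamini-Hochberg adjustment over all genes. The number of arrays limits the precision, with 2 residual degrees of freedom per gene. The code was tested on simulated data over 19938 genes with 2 arrays a tissue, where it found 80 of 100 genes set 2-fold apart and 97 of 100 set 4-fold apart, with 12 false calls. The simulated noise was independent for each gene and array, with no shift shared by many genes on 1 array. These shares are thus a check of the code and need not hold for the 39 genes.

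The 40 genes and all lists were chosen with earlier results of these data known. Values per array are given for the up to 3 genes with the lowest p in each role, the 5 with the widest gap between replicates and the 3 with the highest signal, and for called genes of the pathway lists; Mad2l1, Cdkn3 and E2f8 were named after their values were seen. The alternatives were the methods' t-test, other variance priors, a test against the fold threshold, no fold threshold, 3 normalisations, filters on dim genes, other uses of a gene's probes, the replicate number as a block, and each array left out in turn.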

Additional observations from a re-analysis of the deposited data

How the results depend on the processing

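The number of cell cycle and mitosis genes called was 0 under each alternative that kept all arrays, apart from the replicate block. The labels give both tissues replicates 1 and 2 but do not tie a number to an animal; if equal numbers do mark the same animals, the block is the fitting design. With the replicate number as a block, limma called 3 genes, all higher in visceral mesothelium: Kif23 (log2 difference 1.02, adjusted p = 0.0178), Nusap1 (0.70, adjusted p = 0.0433) and Bub1 (0.65, adjusted p = 0.0477), against 10.1% of all genes. Among the 25 genes given with values per array, Cenpe, Aurka, Pcna and Bub1b also had a limma adjusted p under 0.05 with the block. Their limma adjusted p were 0.0167, 0.0381, 0.0415 and 0.0481, but their folds were below 1.5, so they were not called. The block also leaves fewer residual degrees of freedom than the fit without it. With the block 5 of the 129 pathway genes and 2008 genes in all were called. Leaving out 1 array at a time, the number of members called ranged from 0 to 20, with the 20 found without parietal replicate 1, that of pathway genes from 3 to 24, again with the 24 found without parietal replicate 1, and that of all genes from 1696 to 2095. The median log2 difference of the 39 genes ranged from 0.01 to 0.69 in the same fits. The mean difference changed sign in at least 1 of these fits for 18 of the 39 genes, and without parietal replicate 2 for 15 of them. Among the 25 genes given with values per array these were Foxm1 (-0.16 to 0.55), Ccnb2 (-0.12 to 1.09), Cdk1 (-0.0075 to 0.94), Rrm2 (-0.19 to 0.55), Bub1 (-0.0137 to 1.31), Kif11 (-0.0355 to 1.22) and Ect2 (-0.26 to 0.99). Of the 129 pathway genes, 4 of which were called with limma, the methods' t-test called 0 with adjustment and 2 without, the test against a fold of 1.5 called 0 and the fit of all probes 2. Of all genes, 1915 of which were called with limma, the methods' t-test with adjustment called 0 and the test against a fold of 1.5 called 724. The study names its test as a one-way ANOVA and reported probes that passed the same thresholds after adjustment. That outcome was not reproduced here, over genes with 1 probe each. The cause of these changes was not tested. The 3 other normalisations moved the median of all genes by -0.010 to -0.016. With 2 arrays a tissue, the number of arrays limits the precision of every value.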

Other observations

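Outside the cell cycle, Xist had log2 signals of 11.46 and 5.70 in visceral replicates 1 and 2, against 10.91 and 5.75 in parietal replicates 1 and 2. The Y-linked genes Uty, Kdm5d and Eif2s3y were between 8.39 and 9.65 on all 4 arrays. These genes were looked at after the gap between replicates had been seen, and the labels do not say which animals stand behind each array. On the arrays numbered 1, Xist and the Y-linked genes were thus bright on the same array, in both tissues. Whether those arrays hold RNA of both sexes, and whether equally numbered arrays share mice and so are pairs, was not tested.

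Parietal replicate 1 exceeded parietal replicate 2 by more than it did for Mki67 in 15 genes, gaps in the other direction not being counted. Of these, 7 had visceral gaps over 1 and 8 had visceral gaps under 0.4. Those with wide gaps in both tissues included the immediate early genes Fos (8.39 and 7.18 in visceral, against 9.43 and 7.27 in parietal mesothelium) and Egr1 (10.82 and 9.51 in visceral, against 10.26 and 8.65 in parietal mesothelium) and the sterol synthesis gene Sqle (9.29 and 7.49 in visceral, against 8.75 and 7.28 in parietal mesothelium). Those with a visceral gap under 0.4 included the immediate early gene Fosb (8.92 and 8.56 in visceral, against 9.79 and 7.67 in parietal mesothelium) and the adipocyte gene Retn (6.95 and 7.08 in visceral, against 9.46 and 7.46 in parietal mesothelium). These genes were named after their values were seen. In the cell cycle and mitosis genes the visceral gap did not exceed 0.76.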
